A study of Mus musculus with 23 samples.

Results

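The 9 cathepsin genes Ctsb, Ctsl, Ctss, Ctsk, Ctsh, Ctsz, Ctsc, Ctsd and Ctse and the gene of the protease inhibitor cystatin C, Cst3, were followed across 23 libraries of mouse microglia. They were picked by gene symbol, 10 of the 53090 genes in each deposited table, and all 10 of them were among the 18720 genes that passed the filter on low counts. The 4 groups all came from female C57BL/6 mice and are young (Y, n = 7), young repopulated (Y-re, n = 3), old (O, n = 5) and old repopulated (O-re, n = 8). Repopulated mice had eaten chow with PLX5622, an inhibitor of the receptor CSF1R on which microglia depend, at 1200 ppm in AIN-76A diet. Microglia are lost under the drug and new ones refill the brain afterwards. Per the labels' protocols, treatment controls ate the same chow without drug. The ages of the mice and the durations of treatment and repopulation are not given in the sources used here. Both kinds of isolation appear in the protocols of the labels: magnetic CD11b selection followed by culture, and sorting by flow cytometry, which the extraction text names.

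Cathepsins are proteases that act mainly inside endosomes and lysosomes. They are made as inactive precursors, tagged with mannose 6-phosphate, carried to the lysosome by sorting receptors and activated at acid pH by removal of a propeptide. In microglia they break down engulfed material and trim proteins for presentation on MHC class II molecules. Cystatin C is a small secreted protein that blocks the active site of cysteine cathepsins. It does not inhibit the aspartic proteases cathepsin D and cathepsin E.

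Total counts, in M for 1e06 counts, ran from 43.66 to 58.19 M per library. No replicate pair held identical values. The labels do not say that the libraries of a group came from separate mice, so p-values measure only the spread between these samples, which may be technical. Young replicate 3 stood apart, with the fewest genes detected (16437) and the largest share of counts from a ribosomal RNA gene (3.04%). The titles number the libraries from 1 to 24, and numbers 1 to 11 (10 libraries, no Y-re) were also set against numbers 12 to 24 (13 libraries). The meaning of the numbers is not given in the sources used here. All 9 microglia markers (Tmem119, P2ry12, Sall1, Cx3cr1, Csf1r, Fcrls, Siglech, Olfml3, Gpr34) were detected, with summed levels of 17414.9 to 21773.1 counts per M (CPM) in Y, 14859.3 to 17421.8 in Y-re, 7015.8 to 17815.7 in O and 6568.8 to 20128.7 in O-re. Summed levels of 8 monocyte markers ran from 273.2 to 1664.3, 627.4 to 1117.5, 496.8 to 4512.7 and 366.6 to 7564.1 CPM in the same order. Those of 7 markers of border-associated macrophages, which line vessels and meninges, ran from 58.2 to 223.2, 294.8 to 410.8, 182.2 to 878.1 and 70.3 to 1234.7 CPM. The part of these markers in the results below was not tested. In RNA from a cell population, fewer cells of a type and less RNA per cell cannot be told apart.

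Ctsk and Ctss are shown first because they are neighbours in the genome, on chromosome 3 with 17423 bases and no annotated gene between them. Ctsk (ENSMUSG00000028111.4) lies at chr3:95499256-95509362 and Ctss (ENSMUSG00000038642.10) at chr3:95526786-95556403, both on the plus strand (GENCODE M21, GRCm38). The RefSeq table (GRCm38.p6) held a promoter for 7 of the 10 members, all but Ctsb, Ctsh and Ctse. The 250 bases before each start site, chr3:95498960-95499209 for Ctsk and chr3:95526536-95526785 for Ctss, are given 5′ to 3′ on the plus strand, with matches to the searched motifs in capitals.
Ctsk: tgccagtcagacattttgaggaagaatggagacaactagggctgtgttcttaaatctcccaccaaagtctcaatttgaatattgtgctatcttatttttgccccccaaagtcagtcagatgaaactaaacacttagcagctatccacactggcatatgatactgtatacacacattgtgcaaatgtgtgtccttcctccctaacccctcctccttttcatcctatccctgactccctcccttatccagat
Ctss: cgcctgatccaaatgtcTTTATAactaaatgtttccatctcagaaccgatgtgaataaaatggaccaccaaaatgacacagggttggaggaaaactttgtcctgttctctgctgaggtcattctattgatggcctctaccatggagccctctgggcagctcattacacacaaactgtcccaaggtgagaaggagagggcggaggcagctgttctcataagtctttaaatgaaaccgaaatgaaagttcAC

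A set of 5 motifs was searched on both strands of windows from 250 bases before to 50 after the start site, and the share of all 32851 promoters in the table that hold each is given with it. The E-box CACGTG (7.15% of promoters), which MiT/TFE factors of lysosomal genes recognise, was found in the windows of Ctsl and Ctsd, and the longer CLEAR element built around it (0.326%) in none of the 7. The PU.1-type motif GAGGAAGT (3.2%), named for a transcription factor of microglia and other myeloid cells, was found in those of Ctss and Ctsc. The AP-1 motif TGANTCA (7.81%) was found in none, and TATAAA (13.6%) in Ctss alone, 233 bases before the start. The window of Ctsk held no match to any motif. A match describes letters only. The start sites are those of RefSeq, and in GENCODE M21 Ctsl and Ctsd begin further upstream, at chr13:64370890 and chr7:142388038. The Ctsl E-box and the Ctsd E-box nearer the RefSeq start site thus lie inside the GENCODE genes. The stretches of 30 bases that hold the E-boxes and PU.1-type matches are given in gene orientation, with the match in capitals: Ctsl at chr13:64370741-64370770 (minus strand), Ctsd at chr7:142388048-142388077 and chr7:142387908-142387937 (minus strand), Ctss at chr3:95526773-95526802 and Ctsc at chr7:88277923-88277952 (plus strand).
Ctsl: gcggcgttagaagcCACGTGctgatctaaa
Ctsd, far E-box: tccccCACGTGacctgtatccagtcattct
Ctsd, near E-box: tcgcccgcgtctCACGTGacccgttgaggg
Ctss: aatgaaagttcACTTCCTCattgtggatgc
Ctsc: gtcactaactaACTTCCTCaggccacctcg

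Other annotated genes overlap Ctsb (Fdft1), Ctsz (Nelfcd), Ctss (Hmgb1-ps5), Ctsc (Gm26522), Ctsl and Ctsd, and reads there could be divided between them; strand use in counting is not given in the sources used here. Most of the 10 genes were among the most abundant transcripts of these cells. On the deposited TPM scale, which divides by gene length and so allows levels of different genes to be compared, Ctsd had the highest mean of all genes in Y, 20058.7 ± 3900.0 TPM (SD, n = 7). Cst3 was at rank 3 among all genes, at 12573.3 ± 2540.0 TPM, Ctsb was at 7553.8 ± 1970.0 and Ctss at 7312.9 ± 847.0. The ranges of Ctsd and Cst3 overlapped, as did those of Cst3 and Ctsb and of Ctsb and Ctss, and Ctsb was above Ctss in 4 of 7 young libraries. Then came Ctsl (4056.9 ± 683.0), Ctsz (3009.4 ± 311.0), Ctsh (1125.1 ± 79.1) and Ctsc (605.6 ± 51.4 TPM), of which only the neighbours Ctsl and Ctsz overlapped. Ctse (5.6 ± 1.64 TPM) and Ctsk (0.826 ± 0.574 TPM) were far below, at ranks 9602 and 13799. In Y-re, Ctss was at rank 3 of the members, at 10742.1 ± 666.0 TPM, above Ctsb in all 3 libraries. In O-re, Ctsk (32.5 ± 37.1 TPM, n = 8) had a higher mean than Ctse (13.8 ± 8.27), with overlapping ranges and Ctsk higher in 4 of 8 libraries. The 10 genes together made up 4.386 to 6.221% of all TPM in Y, 5.191 to 6.023% in Y-re, 3.757 to 5.052% in O and 2.983 to 5.714% in O-re.

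**Figure D1:**
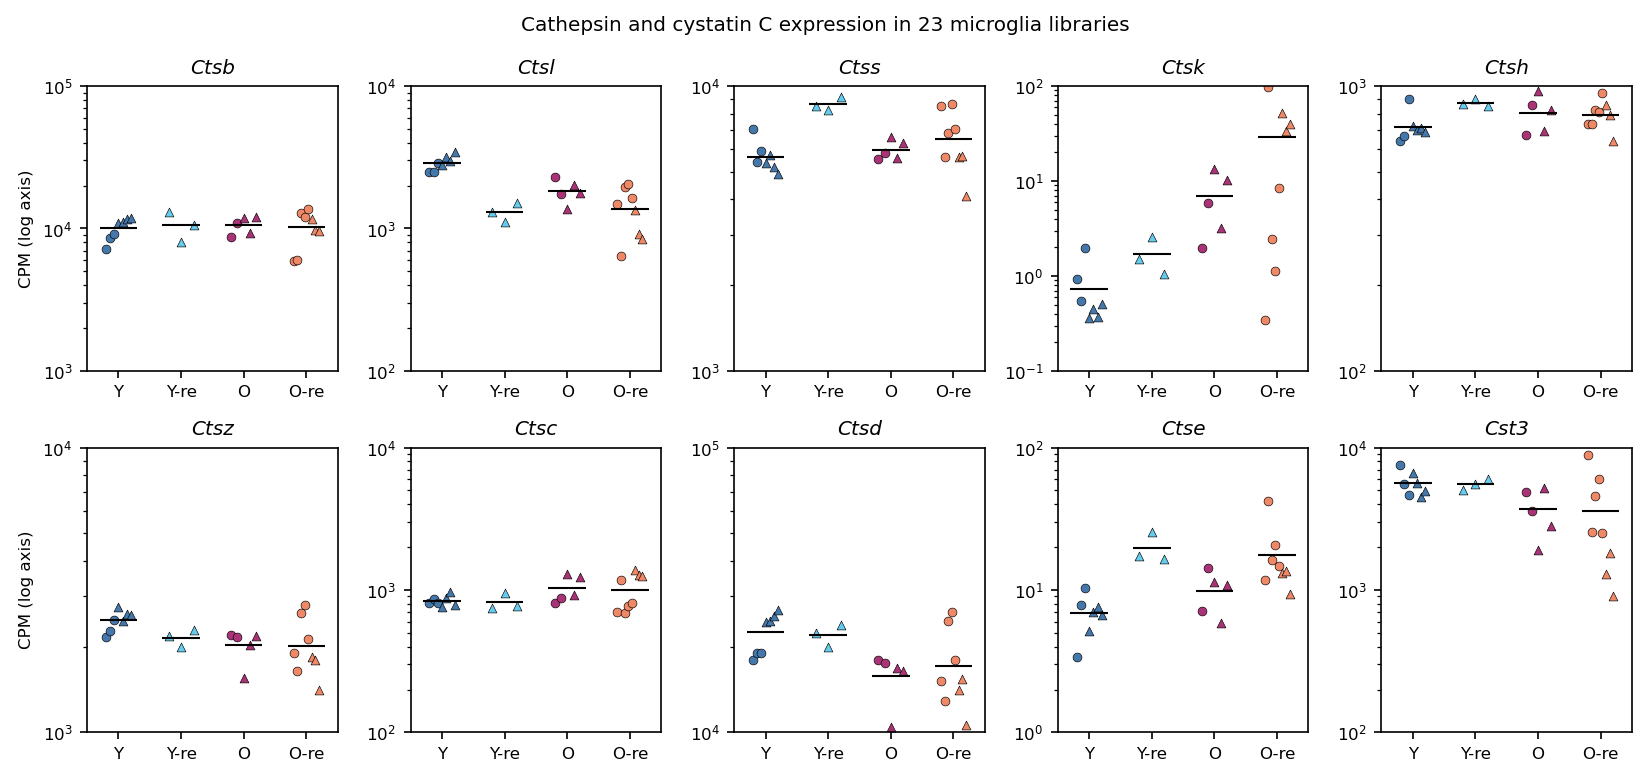
CPM of each of the 10 genes on a log axis in every library, by group, with circles for library numbers 1 to 11, triangles for 12 to 24 and a bar at the group mean. All Y-re, O and O-re points of Ctsl lie below the lowest young point (2483.5 CPM), and the O-re points of Ctsk run from 0.347 to 97.1 CPM.

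Differences between groups were tested with edgeR's quasi-likelihood test over all 18720 genes, and called at an adjusted p (Benjamini-Hochberg) under 0.05. Of the 10 genes, 3 were called in O-re against Y (Ctsl lower, Ctsk and Ctse higher), where 15.2% of all genes were called (9.29% higher, 5.92% lower). In Y-re against Y, 2 were called (Ctsl lower, Ctse higher), where 1.34% of all genes were (0.828% higher, 0.513% lower). In O against Y none of the 10 was called, beside 2.83% of all genes, with 3 at an unadjusted p under 0.05. There DESeq2 called 1 member, beside 5.2% of all genes, and voom with sample quality weights called 2, beside 12.6%. In O-re against O none was called, beside 0.278% of all genes, with 2 at an unadjusted p under 0.05. DESeq2 and voom called 0 members there, beside 1.66% and 2.21% of all genes. Against Y-re, O-re had 0 called members, beside 0.0% of all genes, with 2 at an unadjusted p under 0.05. For that comparison DESeq2 called 1 member, beside 0.433% of all genes, and voom called 3, beside 17%. All 3 Y-re libraries have numbers from 12 to 24, as do 3 of the 8 O-re libraries, and within those numbers 7 members were called in O-re against Y-re, beside 36.3% of all genes. Ctsk and Ctsc were higher there, and Ctss, Ctsz, Ctsd, Ctse and Cst3 lower. Within the same numbers 5 members were called in O against Y (Ctsk and Ctsc higher, Ctsl, Ctsz and Ctsd lower), beside 15.7% of all genes, and 3 in O-re against O (Ctsk higher, Ctsl and Cst3 lower), beside 12.7%. With the library number run as a term 1 member was called in O-re against Y-re, Ctss, beside 4.52% of all genes. The median log2 fold change of the 10 genes was 0.08 in O-re against Y (-0.02 over all genes), 0.02 in Y-re against Y (-0.04 over all genes) and 0.08 in O against Y (-0.01 over all genes). The 3 comparisons with Y share the young libraries. All coordinates below are from GENCODE M21 (GRCm38).

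**Figure D2:**
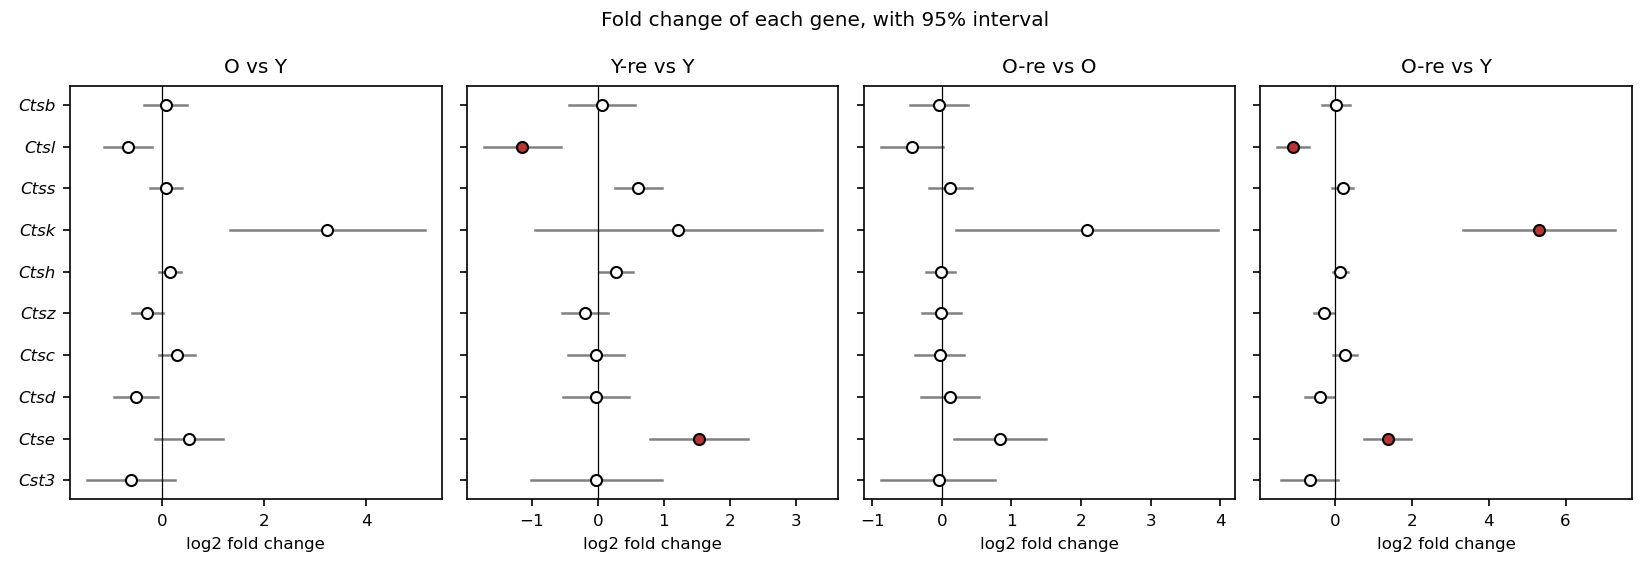
Log2 fold change of each gene in 4 group comparisons (O and Y-re and O-re against Y, O-re against O), with 95% intervals and filled red points for an adjusted p under 0.05. Red points are Ctsl and Ctse in young repopulated against young, and Ctsl, Ctsk and Ctse in old repopulated against young.

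Among the cysteine proteases, Ctsl (ENSMUSG00000021477.9, chr13:64359337-64370890, minus strand), which encodes the endopeptidase cathepsin L, was lower in every repopulated library than in any young library. Its level was 2483.5, 2898.9 and 3442.1 CPM (lowest, median and highest) in Y and 1300.9, 1111.2 and 1515.9 CPM in the 3 Y-re libraries. In O it was 2289.1, 1735.8, 1376.1, 2003.6 and 1768.9 CPM, and in O-re the lowest, median and highest were 644.7, 1421.2 and 2061.4 CPM. No library of the other 3 groups reached the lowest young value, while O and O-re overlapped. Of all genes, 6.11% lay wholly below Y in Y-re, 0.78% in O and 1.26% in O-re.

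Ctsl fell 2.21-fold in Y-re (log2 -1.15, SE 0.278, edgeR adjusted p = 0.0402) and 2.12-fold in O-re against Y (log2 -1.09, SE 0.197, edgeR adjusted p = 0.00135). The value for O against Y was -0.66 (SE 0.225, edgeR adjusted p = 0.13) and that for O-re against O was -0.43 (SE 0.214, edgeR adjusted p = 0.505). Within library numbers 12 to 24 Ctsl was called lower in both of these comparisons, beside 15.7% and 12.7% of all genes. The difference between the repopulation changes at the old and the young age was 0.72 (95% interval 0 to 1.44, edgeR adjusted p = 0.605). The Y-re call was near the threshold and was lost in 10 of 23 fits that left out 1 library, those without Y replicates 2, 4, 5, 6 or 7, any Y-re replicate or O replicates 2 or 5, with adjusted p up to 0.26, and without the filter on low counts (edgeR adjusted p = 0.0543). The O-re call held in all 23. It was not reached within library numbers 1 to 11, where the log2 value was -0.75 (edgeR adjusted p = 0.422), and within 12 to 24 it was -1.57 (edgeR adjusted p = 9e-05).

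Ctss, which encodes cathepsin S, the protease that trims the invariant chain of MHC class II and stays active at neutral pH, was highest in Y-re. The 3 Y-re libraries were at 8532.3, 8212.5 and 9151.5 CPM, and the Y libraries at 4917.2, 5424.8 and 7039.7 CPM (lowest, median and highest). O libraries held 5526.9, 5834.9, 6636.0, 5578.4 and 6333.1 CPM, and O-re ran from 4121.4 to 8628.9 CPM with a median of 6249.9. All 3 Y-re libraries were above all 7 Y libraries, as were Y-re levels of 5.97% of all genes, and O and Y overlapped. Ctss in Y-re against Y missed the threshold (log2 0.61, SE 0.17, edgeR adjusted p = 0.0757). It passed with DESeq2 (adjusted p = 0.0162), with voom (limma adjusted p = 1e-04), with the library number run as a term (edgeR adjusted p = 0.0207), with only the groups compared (0.00433), within library numbers 12 to 24 (0.00306), and in 2 of 23 fits without 1 library, those without O-re replicate 1 (edgeR adjusted p = 0.0403) or O-re replicate 8 (0.0388). In old mice Ctss differed by 0.12 (SE 0.144, edgeR adjusted p = 0.869) between O-re and O.

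Within library numbers 1 to 11 the 5 O-re libraries averaged 7334.5 ± 1250.0 CPM of Ctss against 5680.9 ± 218.0 in 2 O libraries. Within numbers 12 to 24, 3 O-re libraries averaged 5143.6 ± 885.0 CPM against 6182.5 ± 545.0 in 3 O libraries. The direction thus differed between the runs of library numbers. The difference between the runs was -0.65 on the log2 scale (edgeR adjusted p = 0.72).

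Ctsk, which encodes cathepsin K, the collagen-degrading protease best known from osteoclasts, was very low in young microglia and uneven in old mice. The Y libraries held 0.363, 0.504 and 1.98 CPM (lowest, median and highest), the highest being replicate 3, and the Y-re libraries 1.52, 2.58 and 1.04 CPM. The O libraries held 1.98, 5.93, 13.3, 3.19 and 10.2 CPM. The 8 O-re libraries, in replicate order, held 0.347, 97.1, 2.42, 1.14, 8.39, 52.2, 33.8 and 39.7 CPM. Every O library was above every Y library, the lowest O and highest Y values being equal at 3 digits, and 1.43% of all genes lay wholly above Y in O. In O-re 6 of 8 libraries were above all Y libraries and 1 was below all of them.

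Ctsk was 39.8-fold higher in O-re than in Y (log2 5.31, SE 0.943, edgeR adjusted p = 0.00115) and was called in all 23 fits without 1 library. Within library numbers 1 to 11 the value was 4.25 (SE 1.695, edgeR adjusted p = 0.42), and within 12 to 24 it was 6.63 (SE 0.475, edgeR adjusted p = 1.16e-05). O against Y gave 3.23 (SE 0.913, edgeR adjusted p = 0.0566), and without young replicate 3 it gave 3.70 (edgeR adjusted p = 0.0398). That comparison also passed in 5 other fits without 1 library, those without O replicate 1 (edgeR adjusted p = 0.0335) or O-re replicates 1 to 4 (0.0201, 0.0425, 0.0463 and 0.0355). It passed as well with DESeq2 (adjusted p = 0.00762), with only the groups compared (edgeR adjusted p = 0.0104) and within library numbers 12 to 24 (0.000155). O-re against O gave 2.09 (SE 0.903, edgeR adjusted p = 0.391) and Y-re against Y gave 1.21 (SE 1.039, edgeR adjusted p = 0.649). Summed marker levels moved with Ctsk in part. O-re replicates 6, 7 and 8, at 33.8 to 52.2 CPM of Ctsk, had 6791.5, 9313.2 and 6568.8 CPM of microglia markers and 7564.1, 4112.0 and 7507.1 CPM of monocyte markers. Their border-associated macrophage markers summed to 1234.7, 664.9 and 1191.4 CPM, against at most 223.2 in Y. O-re replicate 2, with the highest Ctsk, had 11130.8 CPM of microglia, 1498.2 of monocyte and 809.7 of border-associated macrophage markers. In O-re against Y, 6 of 8 monocyte and 5 of 7 border-associated macrophage markers were called higher, beside 9.29% of all genes. None of them was called lower. Of the 9 microglia markers 4 were called lower (P2ry12, Fcrls, Olfml3 and Csf1r), beside 5.92% of all genes, and none higher. Their part in the result was not tested.

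**Figure D3:**
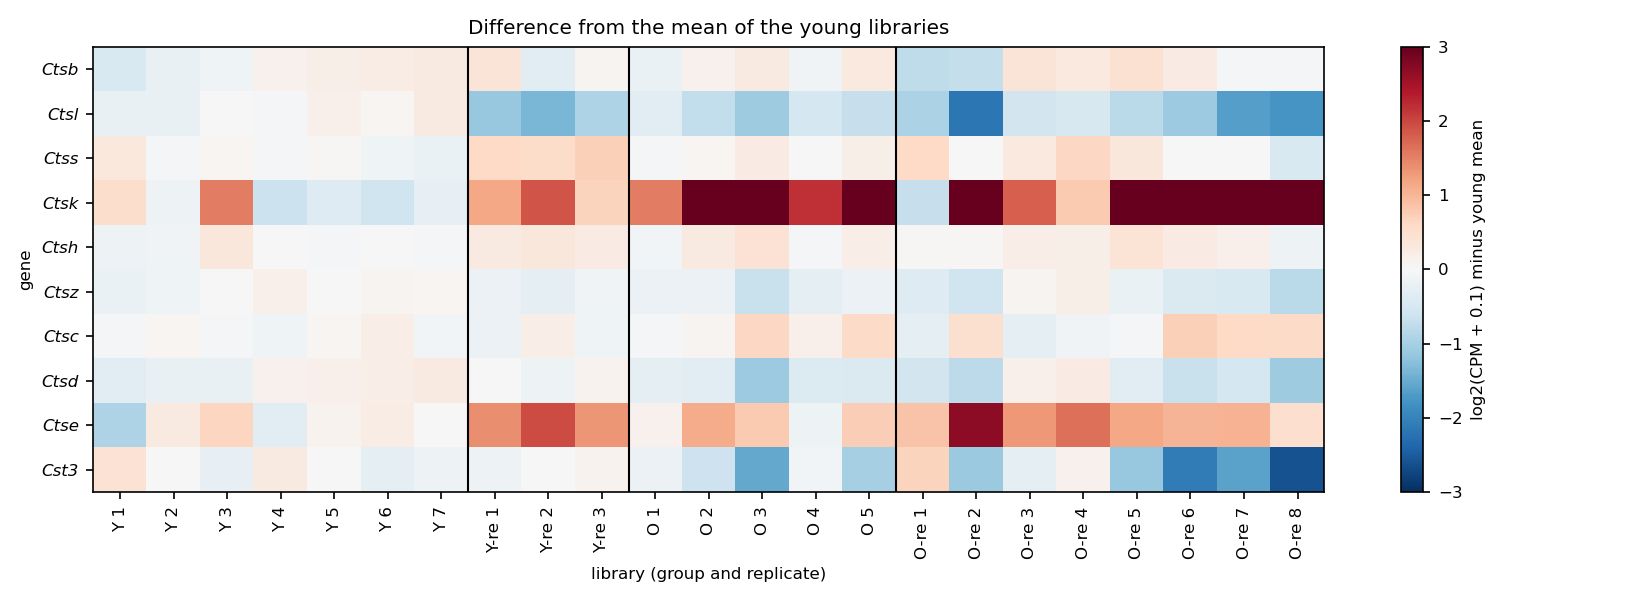
Log2(CPM + 0.1) of each gene in each library minus the young mean, with colours ending at -3 and 3. Ctsk is darkest in old repopulated replicates 2, 5, 6, 7 and 8 and old replicates 2, 3 and 5, and Cst3 is below it in replicates 6 to 8 of that group.

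The remaining 4 cysteine proteases passed the test in no comparison. Ctsb (ENSMUSG00000021939.8, chr14:63122462-63145923, plus strand), which encodes cathepsin B, an endopeptidase that also removes dipeptides from the carboxyl end, had almost the same mean in all groups: 10052.7 ± 1780.0 CPM in Y, 10500.7 ± 2490.0 in Y-re, 10530.1 ± 1520.0 in O and 10196.9 ± 2980.0 in O-re (SD). The 95% interval of its log2 change in O-re against Y ran from -0.35 to 0.40. Ctsh (ENSMUSG00000032359.14, chr9:90054152-90076089, plus strand), which encodes an aminopeptidase, was at 718.5 ± 84.7, 872.0 ± 24.4, 802.1 ± 119.0 and 791.6 ± 90.5 CPM in the same order. Among the group comparisons its largest log2 value was 0.28 in Y-re against Y (SE 0.122, edgeR adjusted p = 0.273). Ctsh in Y was highest in replicate 3, at 899.1 CPM, and without that library the value was 0.34 (SE 0.114).

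Ctsz (ENSMUSG00000016256.10, chr2:174427493-174439039, minus strand), which encodes the carboxypeptidase cathepsin Z, was at 2473.2 ± 206.0 CPM in Y, 2150.6 ± 140.0 in Y-re, 2026.2 ± 273.0 in O and 2016.7 ± 477.0 in O-re. In O-re against Y 6 of 8 libraries were below all young ones, with a log2 value of -0.29 (SE 0.124, edgeR adjusted p = 0.109). It passed without O-re replicate 3 or replicate 4, at edgeR adjusted p of 0.0483 and 0.0276, within library numbers 12 to 24 (0.00232) and with voom (limma adjusted p = 0.00186). Ctsc (ENSMUSG00000030560.17, chr7:88278085-88310888, plus strand), which encodes cathepsin C, the dipeptidyl peptidase that activates granule serine proteases, was at 838.8 ± 68.2, 825.0 ± 117.0, 1027.5 ± 221.0 and 1005.2 ± 290.0 CPM in the same order. O-re replicates 6, 7 and 8 held 1383.2, 1271.8 and 1246.9 CPM of Ctsc, above every Y library (highest 961.3). O-re replicate 2, of the lower library numbers, was also above them, at 1173.6 CPM. O-re replicates 1, 3, 4 and 5 held 689.1 to 806.1 CPM. The log2 value of Ctsc in O-re against Y was 0.26 (SE 0.154, edgeR adjusted p = 0.262) over all libraries and 0.63 (SE 0.129, edgeR adjusted p = 0.00205) within library numbers 12 to 24.

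Of the aspartic proteases, Ctsd (ENSMUSG00000007891.16, chr7:142375911-142388038, minus strand) encodes cathepsin D, the main aspartic endopeptidase of lysosomes. Its level was 17895.8, 24311.2 and 26840.6 CPM (lowest, median and highest) in Y and 22388.1, 19940.2 and 23827.5 CPM in Y-re. The O libraries held 18005.2, 17506.8, 10436.7, 16791.1 and 16370.1 CPM, and O-re ran from 10595.9 to 26372.0 CPM with a median of 15245.3. In O 4 of 5 libraries, and in O-re 5 of 8, were below all young ones, but no comparison passed in the main edgeR fit. The log2 value was -0.51 in O against Y (SE 0.205, edgeR adjusted p = 0.22) and -0.39 in O-re against Y (SE 0.179, edgeR adjusted p = 0.139). The latter passed without O-re replicate 4 (-0.51, edgeR adjusted p = 0.0395), and both passed with voom (limma adjusted p = 0.0066 and 0.001). Young libraries numbered 1 to 11 held 18658.4 ± 661.0 CPM (n = 3) and those numbered 12 to 24 held 25335.4 ± 1150.0 (n = 4). Within numbers 12 to 24, O-re against Y gave -0.92 (SE 0.175, edgeR adjusted p = 0.00134), and within 1 to 11 it gave 0.06.

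Ctse (ENSMUSG00000004552.16, chr1:131638306-131675505, plus strand) encodes cathepsin E, an aspartic protease of endosomes in immune cells and of the stomach lining. It was higher in both repopulated groups than in Y, at a level far below that of Ctsd. The Y libraries held 3.38, 6.98 and 10.3 CPM (lowest, median and highest), the Y-re libraries 17.4, 25.7 and 16.4 CPM and the O libraries 7.14, 14.3, 11.3, 5.83 and 10.9 CPM. The O-re libraries held 11.8, 42.2, 16.1, 20.6, 14.7, 13.2, 13.6 and 9.31 CPM. All 3 Y-re libraries and 7 of 8 O-re libraries were above all Y libraries, and O overlapped with both Y and O-re. Of all genes, 5.97% lay wholly above Y in Y-re.

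Ctse rose 2.9-fold in Y-re against Y (log2 1.53, SE 0.356, edgeR adjusted p = 0.0332) and 2.58-fold in O-re against Y (log2 1.37, SE 0.289, edgeR adjusted p = 0.00368). O-re against O gave 0.84 (SE 0.318, edgeR adjusted p = 0.307) and O against Y gave 0.53 (SE 0.317, edgeR adjusted p = 0.455). The Y-re call was lost in 8 of 23 fits without 1 library, those without Y replicates 1, 4, 5, 6 or 7 or without any of the Y-re replicates, with adjusted p up to 0.213. The O-re call held in all 23, and without O-re replicate 2, the highest library, the value was 1.05 (edgeR adjusted p = 0.0052). Within library numbers 1 to 11 it was 1.55 (edgeR adjusted p = 0.376), and within 12 to 24 it was 0.88 (edgeR adjusted p = 0.0111). The summed level of border-associated macrophage markers was also higher in all Y-re libraries (294.8 to 410.8 CPM) than in any Y library (at most 223.2). Of those 7 markers 1, Ms4a7, was called higher in that comparison, beside 0.828% of all genes. Cd163, another of the 7, had a lower mean in Y-re (5.46 CPM) and O-re (8.04 CPM) than in Y (13.4 CPM), and was not called. In O-re 5 of the 7 were called higher than in Y (F13a1, Ms4a7, Pf4, Cbr2 and Mrc1), beside 9.29% of all genes. The O-re sums, in replicate order, were 70.3, 809.7, 222.7, 163.6, 647.6, 1234.7, 664.9 and 1191.4 CPM. Replicates 1, 3 and 4 were within the Y range of sums (58.2 to 223.2 CPM), with Ctse above every Y library. Replicate 8, with 1191.4 CPM of the markers, had the lowest Ctse of O-re (9.31 CPM). The part of these markers in the Ctse result was not tested.

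Cst3 (ENSMUSG00000027447.6, chr2:148871722-148875692, minus strand), the inhibitor, was the member whose level differed most among O-re libraries after Ctsk. The Y libraries held 4508.3, 5508.3 and 7492.4 CPM (lowest, median and highest) and the Y-re libraries 5000.3, 5544.3 and 5978.0 CPM. The O libraries held 4871.3, 3608.2, 1901.8, 5226.2 and 2792.1 CPM. The O-re libraries, in replicate order, held 8787.7, 2559.0, 4599.1, 6002.2, 2521.1, 1289.8, 1808.8 and 909.4 CPM. In O-re 5 of 8 libraries were below all young ones and 1 was above all of them, and the SD of log2 CPM in O-re was 1.12, larger than that of 97.6% of 2021 genes with a mean of at least 100 CPM.

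No comparison of Cst3 passed in the main edgeR fit (all libraries, no run term). The log2 value was -0.66 in O-re against Y (SE 0.355, edgeR adjusted p = 0.217), -0.61 in O against Y (SE 0.409, edgeR adjusted p = 0.522) and -0.05 in O-re against O (SE 0.391, edgeR adjusted p = 0.992). O-re against Y passed without O-re replicate 1 (-0.98, edgeR adjusted p = 0.0267), with the library number run as a term (-1.03, edgeR adjusted p = 0.031) and with voom (-1.30, limma adjusted p = 0.000617). Within numbers 12 to 24 it was -2.01 (SE 0.321, edgeR adjusted p = 0.00046), and within 1 to 11 it was -0.26 (SE 0.387, edgeR adjusted p = 0.86). The difference between the runs was -1.79 (edgeR adjusted p = 0.0995). O-re replicates 6, 7 and 8, the O-re libraries of the higher numbers, were the 3 lowest in Cst3. They had 6568.8 to 9313.2 CPM of microglia markers, below every Y library. O-re replicates 2 to 5 were also below every Y library in these markers, at 11130.8, 14157.9, 16698.2 and 9199.9 CPM. Their Cst3 was 2559.0, 4599.1, 6002.2 and 2521.1 CPM. So were Y-re replicates 1 and 2, at 14859.3 and 16372.1 CPM of the markers, with Cst3 at 5000.3 and 5544.3 CPM. O-re replicate 1, the highest in Cst3, had 20128.7 CPM of microglia and 366.6 CPM of monocyte markers. Their part in the result was not tested.

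**Figure D4:**
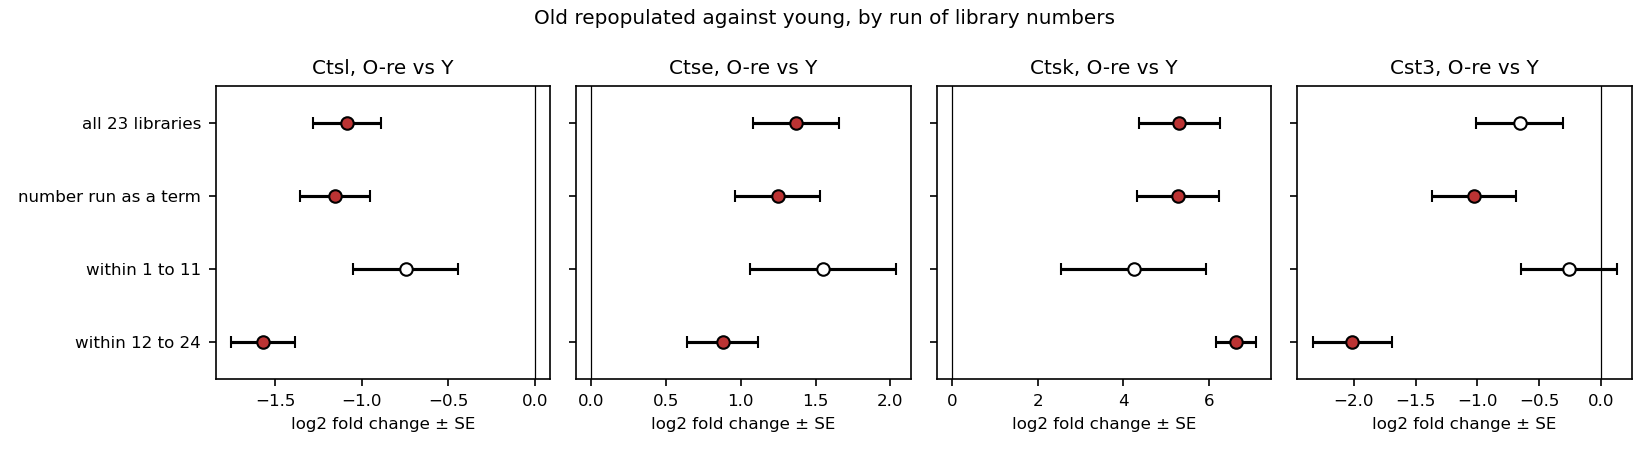
Log2 fold change with SE of Ctsl, Ctse, Ctsk and Cst3 in old repopulated against young, over all 23 libraries, with the run of library numbers as a term, within numbers 1 to 11 and within 12 to 24, with filled red points for an adjusted p under 0.05. All 4 genes have open points within numbers 1 to 11, and Cst3 is at -0.26 there and at -2.01 within 12 to 24.

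On the TPM scale the 7 cysteine proteases summed to 1.912 times the level of Cst3 in Y (median, range 1.31 to 2.423) and to 2.007 times in Y-re (1.746 to 2.207). The ratio was 2.971 in O (1.804 to 5.646) and 3.674 in O-re (1.121 to 8.377). Ranges overlapped between all groups. In O-re the cysteine proteases held 1.581 to 2.505% of all TPM and Cst3 held 0.216 to 1.876%.

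**Figure D5:**
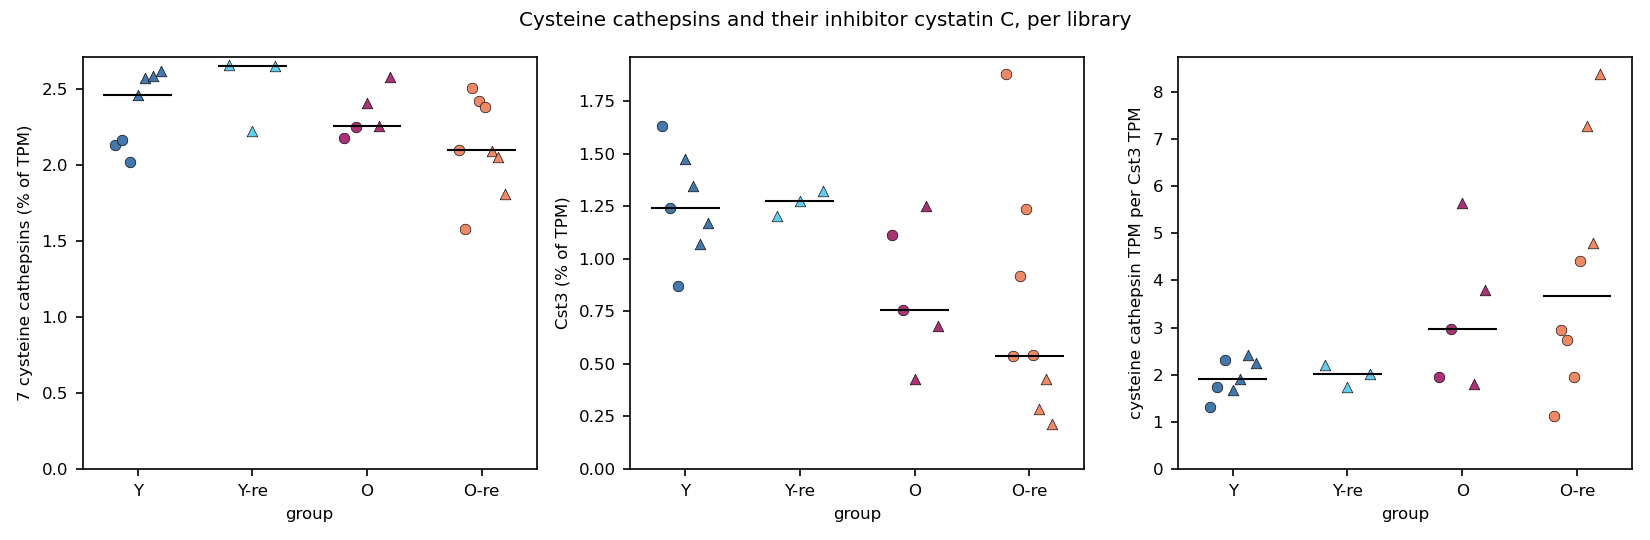
From left to right, the percent of all TPM held by the 7 cysteine proteases, the percent held by Cst3, and the ratio of their TPM. Each point is a library, by group, with a bar at the median and circles or triangles for library numbers 1 to 11 or 12 to 24. Medians of the ratio are 1.912, 2.007, 2.971 and 3.674 in young, young repopulated, old and old repopulated, and the old repopulated ratios span 1.121 to 8.377.

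For 9 of the 10 genes the most similar pattern was sought among 8000 protein-coding genes of a mean of at least 5 CPM, by Pearson's r of log2 CPM over the 23 libraries, which share groups and library numbers. This is a description without a test. Cst3 was closest to Lpcat2 (0.987), Ctsk to Spn (0.96), Ctsd (0.957) and Ctsz (0.946) both to Timp2, and Ctsl to Vangl2 (0.933). Ctsc was closest to Ube2n (0.908), Ctsh to P2rx4 (0.898), Ctse to Axl (0.893) and Ctss to Cd300c2 (0.86). Timp2 encodes an inhibitor of metalloproteases, Axl a receptor for the uptake of dying cells and Spn the leukocyte surface protein CD43. Among the members, Ctsd and Ctsz were most alike (0.936), and 0.96 after the group means were removed. Cst3 and Ctsk ran opposite (-0.873, and -0.835 after the group means were removed), as did Cst3 and Ctsc (-0.83 and -0.826).

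Genes that make, carry or restrain cathepsins were read from lists. In O-re against Y, where most list genes were called, 9.29% of all genes were called higher and 5.92% lower. These shares stand beside each count for that comparison below. Of 13 other cathepsin genes, 5 passed the filter on low counts, and in O-re against Y 1 was called higher and 1 lower. Ctso, a cysteine cathepsin, fell from 91.1 ± 5.52 to 68.6 ± 19.6 CPM (log2 -0.41, SE 0.135, edgeR adjusted p = 0.044). Ctsg, a serine protease of neutrophil granules, was called higher at a very low level, at 0 in 6 of 7 Y libraries and at most 0.375 CPM in O-re. Ctsa held 1558.3 ± 127.0 CPM in Y and 1415.0 ± 247.0 in O-re, and Ctsf 201.5 ± 14.6 and 114.7 ± 66.2 CPM, and neither was called. Ctsw held at most 1.31 CPM in any library. None of these was called in the other comparisons with edgeR.

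Of 12 other inhibitor genes, 9 were tested, and 2 were higher and 2 lower in O-re than in Y. Cstb, which encodes the intracellular inhibitor cystatin B, rose from 67.1 ± 9.14 to 156.8 ± 92.1 CPM (log2 1.22, SE 0.34, edgeR adjusted p = 0.0185). Serpinb1a, an inhibitor of neutrophil serine proteases, rose from 0.443 ± 0.161 to 2.12 ± 1.6 CPM and was also called in O against Y (log2 2.22, edgeR adjusted p = 0.0177). The lower calls rest on low levels: Cst6 was at 0 in all 8 O-re libraries and in 3 of 7 Y libraries, with a highest value of 0.654 CPM, and Serpina3n reached 18.4 CPM in 1 young library with a Y mean of 3.58 ± 6.64. Cst7, which encodes cystatin F, an inhibitor of cathepsin C, held 167.4 ± 15.9 CPM in Y, 291.8 ± 9.98 in Y-re, 134.6 ± 63.6 in O and 207.3 ± 135.0 in O-re and was not called.

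In the list for processing and cofactors, 2 of 6 genes were higher and 2 lower in O-re than in Y. Psap, which encodes the precursor of the saposins, rose from 5592.0 ± 487.0 to 7884.8 ± 1280.0 CPM (log2 0.50, SE 0.132, edgeR adjusted p = 0.0145). Atp6v0d2, a subunit of the proton pump that acidifies lysosomes, rose from 0.209 ± 0.18 to 6.7 ± 6.73 CPM (log2 4.98, SE 0.935, edgeR adjusted p = 0.00163). Lgmn, the asparaginyl endopeptidase that processes procathepsins, fell from 4714.1 ± 281.0 to 3814.9 ± 499.0 CPM, and Grn, which encodes progranulin, fell from 4171.0 ± 356.0 to 3299.6 ± 611.0 CPM.

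Of 7 genes for mannose 6-phosphate tagging and sorting, Gnptab, a subunit of the phosphotransferase that adds the tag, rose in O-re against Y (log2 0.77, SE 0.181, edgeR adjusted p = 0.00733). Gnptg, its other subunit, fell (log2 -0.35, SE 0.09, edgeR adjusted p = 0.0116), and so did Nagpa, the enzyme that uncovers the tag (log2 -0.27, SE 0.077, edgeR adjusted p = 0.0209). Nagpa was also lower in O than in Y (log2 -0.37, SE 0.088, edgeR adjusted p = 0.024). Of the 4 MiT/TFE transcription factors of lysosomal genes, Tfec rose from 1.34 ± 0.563 to 5.07 ± 3.45 CPM in O-re and Tfe3 fell from 162.3 ± 16.2 to 130.9 ± 21.2 CPM.

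The MHC class II list is linked to cathepsin S through the invariant chain. In O against Y 5 of its 10 genes were called higher, beside 2.6% of all genes. In O-re against Y 7 of 10 were called higher, beside 9.29% of all genes. The median log2 value of the list was 1.88 and 2.04, against -0.01 and -0.02 over all genes. Cd74, the invariant chain, was at 90.0 ± 75.1 CPM in Y, 453.6 ± 204.0 in Y-re, 948.5 ± 782.0 in O and 808.6 ± 558.0 in O-re, and Ctss, which encodes the protease for that chain, was called in none of these comparisons. In Y-re against Y 2 of 10 were called higher, beside 0.828% of all genes. These were H2-DMb2 (log2 0.94, SE 0.214, edgeR adjusted p = 0.0296) and H2-DMa (log2 0.65, SE 0.13, edgeR adjusted p = 0.0131). All 6 dendritic cell markers together reached at most 11.5 CPM in Y, 31.2 in Y-re, 139.9 in O and 91.5 in O-re, and their part in these values was not tested. None of the genes in these lists was called in O-re against O, beside 0.278% of all genes.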

How the data were processed

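Poly(A) RNA from 23 microglia samples was made into stranded libraries and sequenced as single reads, per the labels' protocols. The submitters' processing notes name FastQC 0.11.5, STAR, RSEM, limma and the build GRCm38, without roles. Versions of STAR and RSEM, the gene annotation and strand handling are not given in the sources used here. Each library has 1 table, deposited by the authors, with the column layout of RSEM gene results, per the file headers: expected counts (estimated counts, 87.26% of them whole within 1e-06), a length and TPM, which is scaled to gene length and library.

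Expected counts were rounded and analysed in R 4.3.3 with edgeR 4.0.16 (filterByExpr, TMM, all 23 libraries in 1 quasi-likelihood model with a coefficient per group, 6 contrasts). CPM are counts per M scaled by TMM. P-values were adjusted by Benjamini-Hochberg over 18720 genes, with calls under 0.05. DESeq2 1.42.0, voom with sample quality weights (limma 3.58.1), RLE size factors, no filter, only the groups compared, the run of library numbers as a term, fits within each run and fits without each library were alternatives. The scripts were tested on simulated data in which 200 genes were changed. TPM was used to compare genes, and for sums and ratios over members, which are given by group without a test and without TMM scaling. The members and lists were chosen with earlier results of these data known. All members were named, with up to 4 called genes of each list by size of change, other cathepsins and cystatins with their levels, the gene most like each member, and markers given beside a result. Some items that the naming rule or a marker list would give are not reported here.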

Additional observations from a re-analysis of the deposited data

Results flagged for a closer look

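In groups of 4 to 10 samples a library was picked out when its gap to the nearest of the others was large against the whole range of the group (Dixon's 95% limit), and 5 of 30 tests did so, where chance alone picks about 1 in 20. Ctsk in Y was highest in replicate 3, at 1.98 CPM against 0.939 for the next library, and Ctsh in Y was highest in the same library, at 899.1 against 723.6 CPM. That library also had the fewest genes detected and the largest share of counts from a ribosomal RNA gene. Ctsz in O was lowest in replicate 3, at 1551.9 against 2033.4 CPM, and so was Ctsd, at 10436.7 against 16370.1 CPM. O replicate 3 had the lowest summed microglia markers of its group, 7015.8 CPM, and the highest monocyte markers, 4512.7 CPM. Ctse in O-re was highest in replicate 2, at 42.2 against 20.6 CPM, the library that also had the highest Ctsk, 97.1 CPM. The part of these libraries' other features in the values was not tested.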

How the results depend on the processing

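No paired analysis was possible because the labels give the groups no shared replicate numbers. The calls of Ctsl, Ctsk and Ctse in O-re against Y held under RLE size factors, without the filter, with DESeq2, with voom, with the run of library numbers as a term, with only the groups compared, within library numbers 12 to 24 and in all 23 fits without 1 library; they were lost within numbers 1 to 11 (10 libraries: 3 Y, 2 O, 5 O-re). The cause was not tested. The number of members called moved as follows, with the share of all genes called by the same fit in brackets. For O against Y it was 1 with DESeq2 (5.2%) and 2 with voom (12.6%). It was 2 with only the groups compared (4.09%) and 5 within numbers 12 to 24 (15.7%). For O-re against O it was 3 within numbers 12 to 24 (12.7%). For Y-re against Y it was 1 without the filter (0.526%), where more genes were tested, and 3 with DESeq2 (4.35%). It was also 3 with the run of library numbers as a term (1.74%) and with only the groups compared (7.5%). It was 4 with voom (13.8%) and 4 within numbers 12 to 24 (9.3%). For O-re against Y it was 7 with voom (35.5%) and 4 with the run of library numbers as a term (24.5%). It was 0 within numbers 1 to 11 (0.0107%) and 7 within numbers 12 to 24 (41.1%). For O-re against Y-re it was 1 with DESeq2 (0.433%) and 3 with voom (17%). It was 1 with the run of library numbers as a term (4.52%) and 7 within numbers 12 to 24 (36.3%). For the interaction it was 1 with voom (0.807%) and 2 within numbers 12 to 24 (8.87%). Without 1 library in turn the count ran from 0 to 1 in O against Y, 0 to 3 in Y-re against Y and 3 to 5 in O-re against Y, and was 0 in all 23 fits of the other 3 contrasts. Over all genes, O-re against Y called 15.2% with edgeR, 35.5% with voom, 24.5% with the run of library numbers as a term, 0.0107% within numbers 1 to 11 and 41.1% within numbers 12 to 24, and the cause was not tested. A total of 88 values of 20 results, none of them called, changed sign. Under voom, the sign turned in O against Y Ctsb -0.031, and in O-re against O Ctsh 0.001, Ctsc 0.027, Ctsd -0.010, and in Y-re against Y Ctsb -0.005, Cst3 0.032, and in O-re against Y Ctsb -0.085, and in O-re against Y-re Ctsl -0.217, and in the interaction Ctsk -0.196. With the library number run as a term, the sign turned in O-re against O Ctsb 0.008, Ctsc 0.040, and in Y-re against Y Ctsb -0.019, Ctsd 0.017, Cst3 0.289, and in O-re against Y-re Ctsb 0.098, Ctsl -0.081. Within library numbers 1 to 11, the sign turned in O against Y Ctss -0.109, and in O-re against O Ctsb 0.059, Ctsh 0.081, Ctsz 0.032, Cst3 0.214, and in O-re against Y Ctsd 0.059. Within 12 to 24, the sign turned in O against Y Ctsb -0.035, and in O-re against O Ctss -0.265, Ctsc 0.178, Ctsd -0.126, and in Y-re against Y Ctsb -0.086, Cst3 0.054, and in O-re against Y Ctsb -0.132, Ctss -0.035, and in O-re against Y-re Ctsl -0.356. Without 1 library in turn, values that crossed 0 in Y-re against Y ran for Ctsb -0.117 to 0.261, for Cst3 -0.092 to 0.054, for Ctsc -0.109 to 0.044, for Ctsd -0.087 to 0.076. Without 1 library in turn, values that crossed 0 in O-re against Y ran for Ctsb -0.052 to 0.131. Without 1 library in turn, values that crossed 0 in O-re against Y-re ran for Ctsb -0.222 to 0.138, for Ctsl -0.063 to 0.177, for Ctse -0.485 to 0.048. Without 1 library in turn, values that crossed 0 in O-re against O ran for Ctsz -0.089 to 0.054, for Cst3 -0.384 to 0.112, for Ctsh -0.078 to 0.054, for Ctsc -0.111 to 0.064, for Ctsd -0.004 to 0.190, for Ctsb -0.119 to 0.042.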
